A study of Homo sapiens with 5 samples.

Results

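The regions beside the human centromeres that gave an ERG or a p53 peak in VCaP cells were examined. VCaP, an established line from prostate cancer, carries the TMPRSS2-ERG fusion and a mutant p53, and all samples came from untreated cells grown with serum. ERG was precipitated in 2 samples (Abcam antibody ab92513) and p53 in 2 samples (Santa Cruz antibody sc-126, clone DO-1), and each sample was profiled by chromatin immunoprecipitation followed by sequencing (ChIP-seq). The series also holds 1 input chromatin sample, which is not analysed here. The 2 samples of a factor are numbered as replicates. The study calls them biological replicates. Neither it nor the labels say whether separate cultures were used, so the spread between them may still be technical.

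The peaks of the 4 lists were merged where they overlapped by at least 1 bp, which gave 16244 regions. A region was counted as pericentromeric when it lay within 5 Mb of the 3 Mb centromere gap of chromosomes 1 to 22. This left 976 regions, of which 158 lay within 1 Mb of a gap and 818 between 1 and 5 Mb, while 15268 lay elsewhere. None was inside a gap. The gap starts were taken to the nearest 10 kb, so a distance can be off by up to 5 kb. The last region within 1 Mb was an ERG replicate 1 peak of 468 bp on chromosome 20 at 998 kb from the gap, and the first beyond it was an ERG replicate 2 peak of 219 bp on chromosome 1 at 1002 kb. At the outer limit, the last region inside was an ERG replicate 1 peak of 228 bp on chromosome 3 at 4996 kb, and the first outside was a region of both ERG replicates on chromosome 11 at 5001 kb.

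Centromeres hold long arrays of alpha satellite DNA, on which the kinetochore forms at cell division. Around them lie other satellite families and recent segmental duplications, and few genes. Older reference genomes replace most of the arrays by gaps and keep short satellite stretches at the edges. ERG is a transcription factor of the ETS family, which binds a core GGAA element and is found mostly at promoters and enhancers. p53 is a tumor suppressor that binds its own response elements, and mutants of its DNA binding domain lose most of that binding. The positions are hg19. Regions are given by position and without gene names or sequence, since no annotation or sequence of that build was used, and the repeat content of the regions was not analysed.

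The first comparison asked what share of each factor's peaks lay beside the centromeres. Very few ERG peaks did and many p53 peaks did. Within 1 Mb of a gap lay 97 of the 14337 peaks of ERG replicate 1 (0.677%, 95% Wilson interval 0.555% to 0.825%) and 95 of the 11237 of ERG replicate 2 (0.845%, 0.692% to 1.03%). For p53 the numbers were 30 of 227 in replicate 1 (13.2%, 9.42% to 18.2%) and 54 of 138 in replicate 2 (39.1%, 31.4% to 47.5%). Over all 4 lists together the share was 1.06%. Both p53 lists were thus above both ERG lists, and p53 replicate 2 was far above p53 replicate 1. The intervals cover counting error only and treat peaks as independent. The ERG lists hold as many peaks as the study reports for ERG at its false discovery rate limit. The deposited p53 lists are much shorter than the p53 peak sets that the study describes, also at that limit. The factors are thus not compared at a like stringency, and these shares and their differences hold for the deposited peaks only. How much of the difference between the factors goes with this was not tested.

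The mean share within 1 Mb was 26.2% for p53 (SD 18.3, n = 2) and 0.761% for ERG (SD 0.119, n = 2), a difference of 25.4 percentage points. In an exact permutation test over the 4 lists (two-sided) the p was 0.333, which is the smallest that 2 lists against 2 can give, so the design cannot reach 0.05. Without p53 replicate 2 the difference was 12.5 percentage points, and without p53 replicate 1 it was 38.4. Counting neighbours within 100 kb as 1 lowered it to 11.7.

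Farther out the factors were closer. Between 1 and 5 Mb lay 4.99% of ERG replicate 1 peaks (716), 5.05% of ERG replicate 2 peaks (567), 9.69% of p53 replicate 1 peaks (22) and 8.70% of p53 replicate 2 peaks (12). Here the p53 replicates differed by less than their counting error, and the mean was 9.19% (SD 0.704, n = 2) against 5.02% (SD 0.0366, n = 2) for ERG (exact permutation p = 0.333). Taken over the whole 5 Mb, 5.67% and 5.89% of the ERG peaks and 22.9% and 47.8% of the p53 peaks were pericentromeric, with 6.14% over all lists. The difference between the means was 29.6 percentage points (exact permutation p = 0.333), 17.1 without p53 replicate 2 and 15.9 with neighbours within 100 kb counted as 1.

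**Figure D1:**
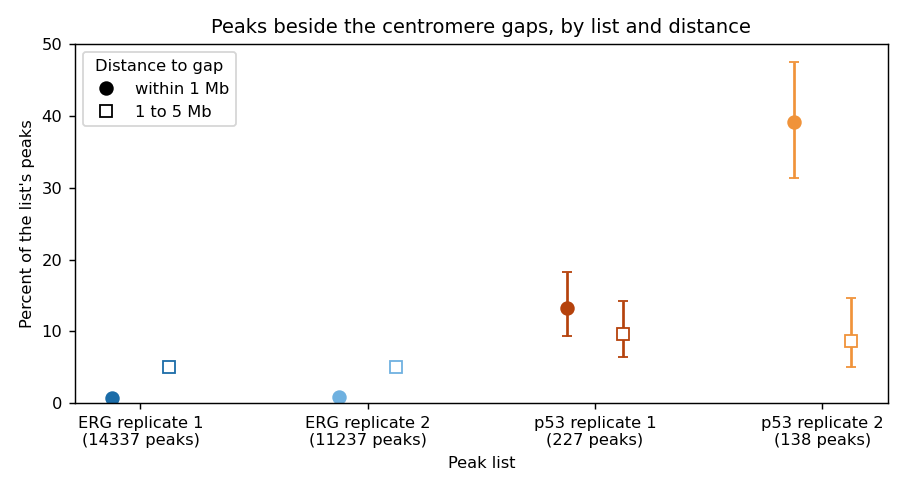
Percent of each list's peaks (y axis) within 1 Mb of a centromere gap (filled circles) and 1 to 5 Mb from it (open squares), for the 4 lists (x axis); bars are 95% Wilson intervals, which are smaller than the symbols for ERG. The shares within 1 Mb are 0.677% and 0.845% for ERG and 13.2% and 39.1% for p53, while those at 1 to 5 Mb lie between 4.99% and 9.69%.

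p53 peaks also lay closer to the gap than ERG peaks within the flanks. The 91 pericentromeric regions with a p53 peak had a median distance of 290 kb to the gap, from 4.22 kb to 4862 kb, and 66 of them were within 1 Mb (72.5%). The 885 regions with ERG peaks alone had a median distance of 2938 kb, and 92 of them were within 1 Mb (10.4%). The nearest 100 kb held 25 of the 66 pericentromeric peaks of p53 replicate 2 (37.9%) and 9 of the 52 of p53 replicate 1 (17.3%). It held 24 of 662 in ERG replicate 2 (3.63%) and 12 of 813 in ERG replicate 1 (1.48%). Per Mb of distance, summed over the flanks, ERG replicate 2 was nevertheless denser there than in any farther step. It had 240 peaks per Mb in the nearest 100 kb and 172 at 4000 to 5000 kb. ERG replicate 1 had 120 and 203. The p53 lists had 90 (replicate 1) and 250 (replicate 2) in the nearest 100 kb.

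The share of regions with a p53 peak fell with distance from the gap. It was 26 of 37 regions within 100 kb (70.3%, 54.2% to 82.5%), 14 of 20 between 100 and 250 kb (70.0%, 48.1% to 85.5%), 13 of 28 between 250 and 500 kb (46.4%, 29.5% to 64.2%) and 13 of 73 between 500 and 1000 kb (17.8%, 10.7% to 28.1%). Beyond 1 Mb it was between 1.29% and 5.45% in each further 1 Mb. Elsewhere in the genome 236 of 15268 regions had a p53 peak (1.55%, 1.36% to 1.75%), and 2.01% did over the whole series. Each step of the first 1 Mb thus had a higher share than the rest of the genome. The intervals treat regions as independent, which neighbours in a group are not, and both p53 lists are pooled. Of the p53 regions within 100 kb, 10 were in 1 group on chromosome 2. Of those between 100 and 250 kb, 6 were in 1 group on chromosome 10.

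**Figure D2:**
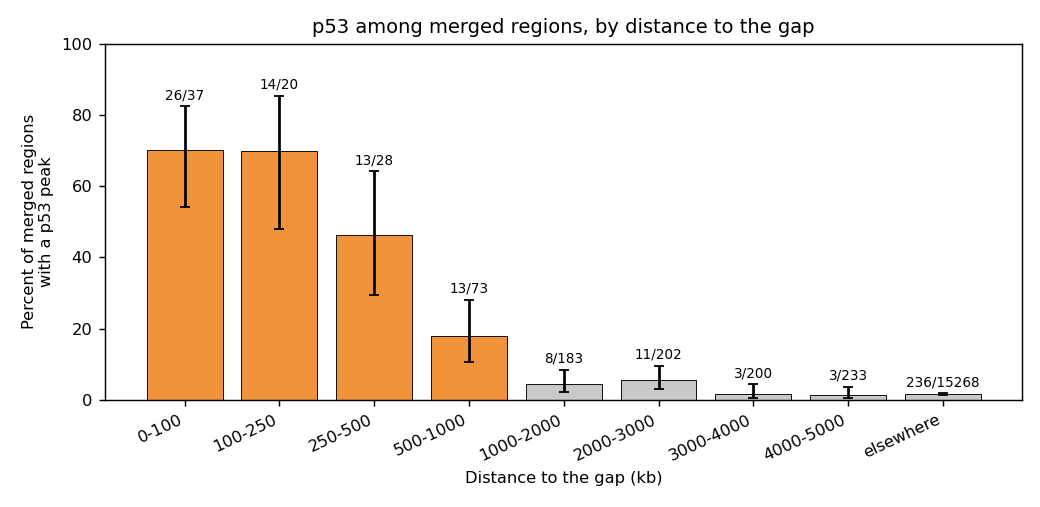
Percent of merged regions with a p53 peak (y axis) by distance to the gap in kb (x axis; "elsewhere" is more than 5 Mb from a gap or on X or Y), with 95% Wilson intervals and the counts above each bar; orange bars are within 1 Mb. The share is 70.3% in the first 100 kb, 17.8% at 500 to 1000 kb and 1.55% elsewhere.

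Regions of both ERG lists close to a gap mostly carried a p53 peak as well. Of the 15 such regions within 250 kb, 14 also had a p53 peak. Between 250 kb and 1 Mb 8 of 48 did, and 1.41% of such regions did over the series. ERG regions of a single ERG list are not in these counts. Within 250 kb they numbered 9 for replicate 1 and 19 for replicate 2. Over the first 1 Mb, such single-list regions met p53 less often, in 2 of 34 cases for replicate 1 and 13 of 32 for replicate 2. Many of the 14 also lay together in groups, and neighbours in a group are not independent. The closest region of both ERG lists without a p53 peak lay 231 kb from its gap, while single-list ERG regions without p53 lay closer. Over the first 1 Mb, 37 of 129 regions with any ERG peak met p53 (28.7%, 21.6% to 37.0%), against 11 of 804 at 1 to 5 Mb (1.37%, 0.766% to 2.43%) and 130 of 15162 elsewhere (0.857%, 0.723% to 1.02%), with 1.11% over the series.

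The share in the other direction did not stand apart. Of the p53 regions within 1 Mb, 37 of 66 had an ERG peak (56.1%, 44.1% to 67.4%). The values were 11 of 25 at 1 to 5 Mb (44.0%, 26.7% to 62.9%) and 130 of 236 elsewhere (55.1%, 48.7% to 61.3%), with 54.4% over the series. The p53 lists differed here. Regions of p53 replicate 1 alone met ERG in 2 of 12 cases within 1 Mb (16.7%, 4.70% to 44.8%) and in 87 of 164 elsewhere, with 48.9% over the series. Regions of p53 replicate 2 alone met it in 19 of 36 (52.8%, 37.0% to 68.0%) and 34 of 61 (55.7%, 43.3% to 67.5%; 54.5% over the series). Regions of both p53 lists met ERG in 16 of 18 cases within 1 Mb and 9 of 11 elsewhere, with 83.3% over the series, while those of a single p53 list did in 21 of 48 within 1 Mb and in 50.9% over the series.

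The 5 Mb flanks amount to 44 chromosome sides, of which 37 had at least 1 region and 29 had one within 1 Mb. ERG peaks lay within 1 Mb on 28 flanks and p53 peaks on 15. Of these 15, 9 had peaks of both p53 lists, 3 of replicate 1 alone and 3 of replicate 2 alone. The p53 regions were uneven, since 34 of the 66 within 1 Mb were on only 3 flanks, namely the long arm of chromosome 10 with 13, the short arm of chromosome 4 with 11 and the short arm of chromosome 2 with 10. These 3 flanks held 30 of the 54 regions of p53 replicate 2 within 1 Mb. By contrast, the long arms of chromosomes 17 and 20 had 8 ERG regions each within 1 Mb and the long arm of chromosome 2 had 7, with no p53 region among them. Whole flanks without any peak were the long arms of chromosomes 1, 9 and 16 and the short arms of 13, 14, 15 and 22, stretches that are known to be largely unassembled in this build.

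**Figure D3:**
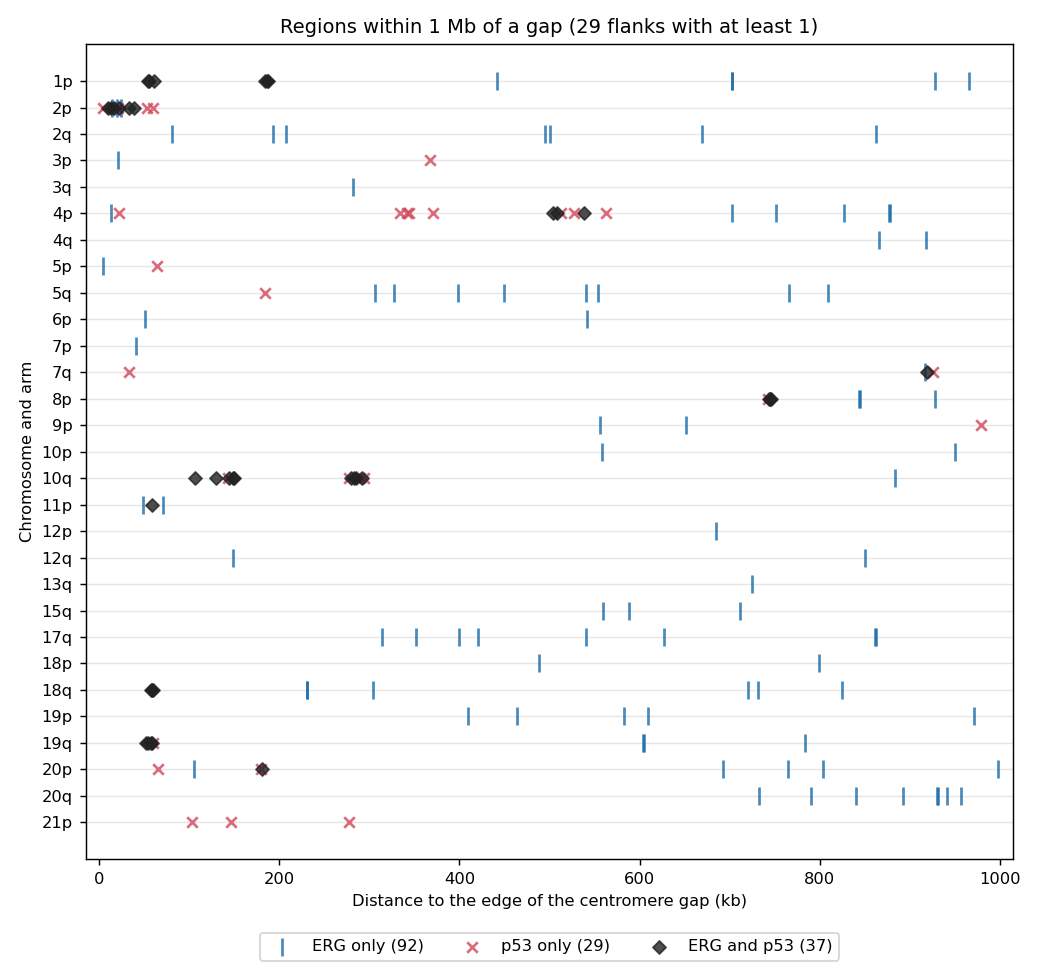
The 158 regions within 1 Mb of a gap, by distance to the gap edge in kb (x axis) and by chromosome arm (y axis, 29 flanks with at least 1 region). Blue bars mark the 92 regions with ERG alone, red crosses the 29 with p53 alone and black diamonds the 37 with both. p53 regions lie on 15 flanks, with 34 of the 66 on only 3 of them, and ERG regions lie on 28.

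The region nearest to the gap was found on each of the 29 flanks, and on 10 of them it carried a p53 peak. That is no more than the share over all regions within 1 Mb, of which 66 of 158 did (41.8%). The closest of all was a p53 replicate 2 peak of 280 bp on chromosome 2 at 92325501 to 92325780, which lay 4.22 kb from the gap. On chromosome 5 an ERG replicate 2 peak at 46404940 to 46405226 lay 4.78 kb from it, and on chromosome 4 an ERG replicate 1 peak at 49646800 to 49647031 lay 12970 bp from it. The order of these first distances is within the rounding of the gap starts. On chromosome 7 the nearest region of the long arm was a p53 replicate 2 peak at 61083595 to 61083831, 33.6 kb from the gap. On chromosome 1, at 54.6 kb, and on the long arm of chromosome 19, at 52.0 kb, the nearest region was in all 4 lists. On the other flanks the nearest region lay between 20.8 kb and 866 kb from the gap.

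Replication between the lists of a factor was compared next. Within 1 Mb, 63 of 129 ERG regions were in both ERG lists (48.8%, 40.4% to 57.4%), against 473 of 804 at 1 to 5 Mb (58.8%, 55.4% to 62.2%) and 8830 of 15162 elsewhere (58.2%, 57.5% to 59.0%; 58.2% over the series). The lower value came from the side of replicate 2. Of the ERG replicate 2 regions within 1 Mb, 66.3% were found in replicate 1 (63 of 95, 56.3% to 75.0%), against 84.2% elsewhere (83.5% to 84.9%; 84.1% over the series). Of the ERG replicate 1 regions, 64.9% were found in replicate 2 (63 of 97, 55.0% to 73.7%), close to the 65.4% elsewhere (64.6% to 66.2%) and over the series.

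p53 regions recurred more often beside the gaps than elsewhere. Within 1 Mb, 18 of 66 p53 regions were in both p53 lists (27.3%, 18.0% to 39.0%), at 1 to 5 Mb 7 of 25 were (28.0%, 14.3% to 47.6%), and elsewhere 11 of 236 were (4.66%, 2.62% to 8.15%; 11.0% over the series). The flanks therefore held 25 of the 36 regions of the genome with peaks of both p53 lists. In p53 replicate 1, 18 of 30 regions within 1 Mb were found again, against 11 of 175 elsewhere (6.29%, 3.55% to 10.9%; 15.9% over the series). In p53 replicate 2 it was 18 of 54 (33.3%, 22.2% to 46.6%) against 11 of 72 (15.3%, 8.75% to 25.3%; 26.3% over the series), and these intervals overlap. Regions of a group are not independent, and counted as 1 per group within 100 kb, 15 of 42 pericentromeric p53 groups held a region of both lists (35.7%), with 9 of 22 within 1 Mb (40.9%, 23.3% to 61.3%) and 11 of 223 elsewhere (4.93%, 2.78% to 8.62%).

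Regions found in all 4 lists were concentrated in the same places. There were 27 in the genome (0.166% of all regions), of which 15 lay within 1 Mb, 5 at 1 to 5 Mb and 7 elsewhere. Those 15 are 9.49% of the 158 regions within 1 Mb (5.84% to 15.1%). They are 15 of the 66 p53 regions there, against 8.26% of all p53 regions of the series. Regions of a single list made up 78 of the 158 (49.4%, 41.7% to 57.1%), against 42.0% both elsewhere and over the series. The 15 lay on the short arms of chromosomes 1, 2, 4, 8 and 20 and on the long arms of chromosomes 7, 10, 18 and 19.

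Of these, 3 lay on chromosome 8, 744 to 746 kb from the gap. At 43092765 to 43093512 the peaks were 644 bp and 705 bp wide for ERG replicates 1 and 2 and 616 bp and 714 bp for p53 replicates 1 and 2. At 43094765 to 43095237 they were 463 bp, 467 bp, 453 bp and 472 bp in the same order. At 43095906 to 43096161 they were 250 bp, 256 bp, 218 bp and 239 bp. The 4 widths at each place differed less from each other than the widths of different places did.

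Chromosome 19 had 3 more, at 52.0, 53.9 and 57.2 kb from the gap. The first, at 27731980 to 27732733, had widths of 663 bp and 744 bp for ERG and 651 bp and 754 bp for p53. The second, at 27733862 to 27734188, had 327 bp and 286 bp for ERG and 226 bp and 318 bp for p53, and the third, at 27737234 to 27737684, had 413 bp and 420 bp against 291 bp and 451 bp. A neighbour at 27738461 to 27738908 had ERG replicate 2 (445 bp) and both p53 lists (429 bp and 443 bp), without ERG replicate 1.

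Chromosome 1 had a pair at 55.3 and 54.6 kb. At 121484099 to 121484680 ERG peaks of 541 bp and 570 bp met p53 peaks of 331 bp and 582 bp, and at 121485017 to 121485394 ERG peaks of 323 bp and 351 bp met p53 peaks of 266 bp and 378 bp. Chromosome 10 had a pair at 283 and 285 kb. At 42533451 to 42533861 the widths were 375 bp and 411 bp for ERG and 311 bp and 400 bp for p53, and at 42534726 to 42535230 they were 505 bp and 258 bp against 244 bp and 263 bp.

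Single regions of all 4 lists stood on the remaining flanks. On chromosome 2 it was at 92290533 to 92291089, 38.9 kb from the gap, with 320 bp and 557 bp for ERG and 292 bp and 333 bp for p53. On chromosome 18 it was at 18519837 to 18520302, 59.8 kb away, with 369 bp and 466 bp against 396 bp and 441 bp. On chromosome 20 it was at 26188740 to 26189164, 181 kb away, with 409 bp and 400 bp against 420 bp and 370 bp. Farther from their gaps lay chromosome 4 at 49155244 to 49155512 (504 kb), with widths from 192 bp to 264 bp, and chromosome 7 at 61968924 to 61969665 (919 kb), where p53 replicate 1 had 263 bp and the other lists 692 bp to 742 bp.

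Both p53 lists without any ERG peak were found at 4 pericentromeric regions. On chromosome 7 at 61976080 to 61976815 the p53 peaks were 404 bp and 736 bp wide, and on chromosome 20 at 26189807 to 26190159 they were 353 bp and 248 bp. Beyond 1 Mb there was a region on chromosome 17 (27229957 to 27230266) with p53 peaks of 224 bp and 245 bp, and another on chromosome 22 (18883688 to 18884010) with 302 bp and 314 bp. All but the one on chromosome 17 lay within 10 kb of a region of all 4 lists.

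The 5 regions of all 4 lists at 1 to 5 Mb were on chromosomes 2, 16, 20, 21 and 22. The one on chromosome 21, at 9825495 to 9827490 on the short arm and 1463 kb from the gap, was the third widest of the pericentromeric ERG regions by the narrower replicate. It held 1 peak of 1966 bp in ERG replicate 1 and a pair of peaks in each of the other lists, of which the wider had 999 bp in ERG replicate 2 and 1038 bp and 960 bp in p53 replicates 1 and 2. On chromosome 2 at 89874873 to 89875624, p53 replicate 2 was the widest with 747 bp, against 458 bp and 464 bp for ERG and 274 bp for p53 replicate 1. On chromosome 16 at 33963042 to 33963510 the widths were 429 bp and 233 bp for ERG and 462 bp and 286 bp for p53. On chromosome 20 at 32319802 to 32320265 ERG was wider, with 418 bp and 359 bp against 244 bp and 213 bp. On chromosome 22 at 18878054 to 18878574 they ranged from 205 bp in p53 replicate 1 to 521 bp in p53 replicate 2.

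The regions were then described as groups, in which neighbours lie within 100 kb of each other. Of the p53 regions within 1 Mb, 57 of 66 had another p53 region within 100 kb (86.4%, 76.1% to 92.7%), against 10 of 25 at 1 to 5 Mb (40.0%, 23.4% to 59.3%) and 21 of 236 elsewhere (8.90%, 5.89% to 13.2%). For ERG regions and ERG neighbours the shares were 81.4%, 82.8% and 80.1%. The series holds 16095 ERG regions and 327 p53 regions, so an ERG neighbour within 100 kb is common everywhere. The shares of the factors are therefore not comparable. Within 1 Mb the 57 p53 regions formed 13 groups, and the median space between neighbours was 3.23 kb, from 336 bp to 42.7 kb.

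With ERG regions included, 22 pericentromeric groups of at least 3 regions held a p53 peak, and 13 of them lay wholly within 1 Mb. The largest of these was on chromosome 2 between 92269165 and 92325780, at 4.22 to 60.1 kb from the gap. It held 13 regions over 56.6 kb, of which 10 had a p53 replicate 2 peak, 9 an ERG replicate 2 peak, while ERG replicate 1 and p53 replicate 1 were seen in 1 region only. The replicate 2 lists thus made up this group, and the replicate 1 lists met it at a single place. Of the 10 p53 regions, 6 had an ERG peak, and in 5 of those 6 it came from ERG replicate 2 alone.

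The long arm of chromosome 10 had a pair of groups. Between 42356258 and 42400626, at 106 to 150 kb from the gap, all 6 regions had a p53 replicate 2 peak, 5 met ERG replicate 1, 4 met ERG replicate 2 and 0 met p53 replicate 1. Between 42527583 and 42544802, at 278 to 294 kb, all 7 had a p53 replicate 2 peak, 2 met p53 replicate 1, 2 met ERG replicate 1 and 4 met ERG replicate 2. Both groups lacked regions with ERG alone.

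On the short arm of chromosome 4 the p53 lists were found at different places. Between 49096613 and 49155512 all 6 regions had a p53 replicate 2 peak, 1 had a p53 replicate 1 peak, and 3 had ERG. Between 49289077 and 49325571, at 334 to 371 kb from the gap, all 4 regions came from p53 replicate 1 alone, with widths of 213 bp, 228 bp, 186 bp and 625 bp, and no ERG peak was among them.

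**Figure D4:**
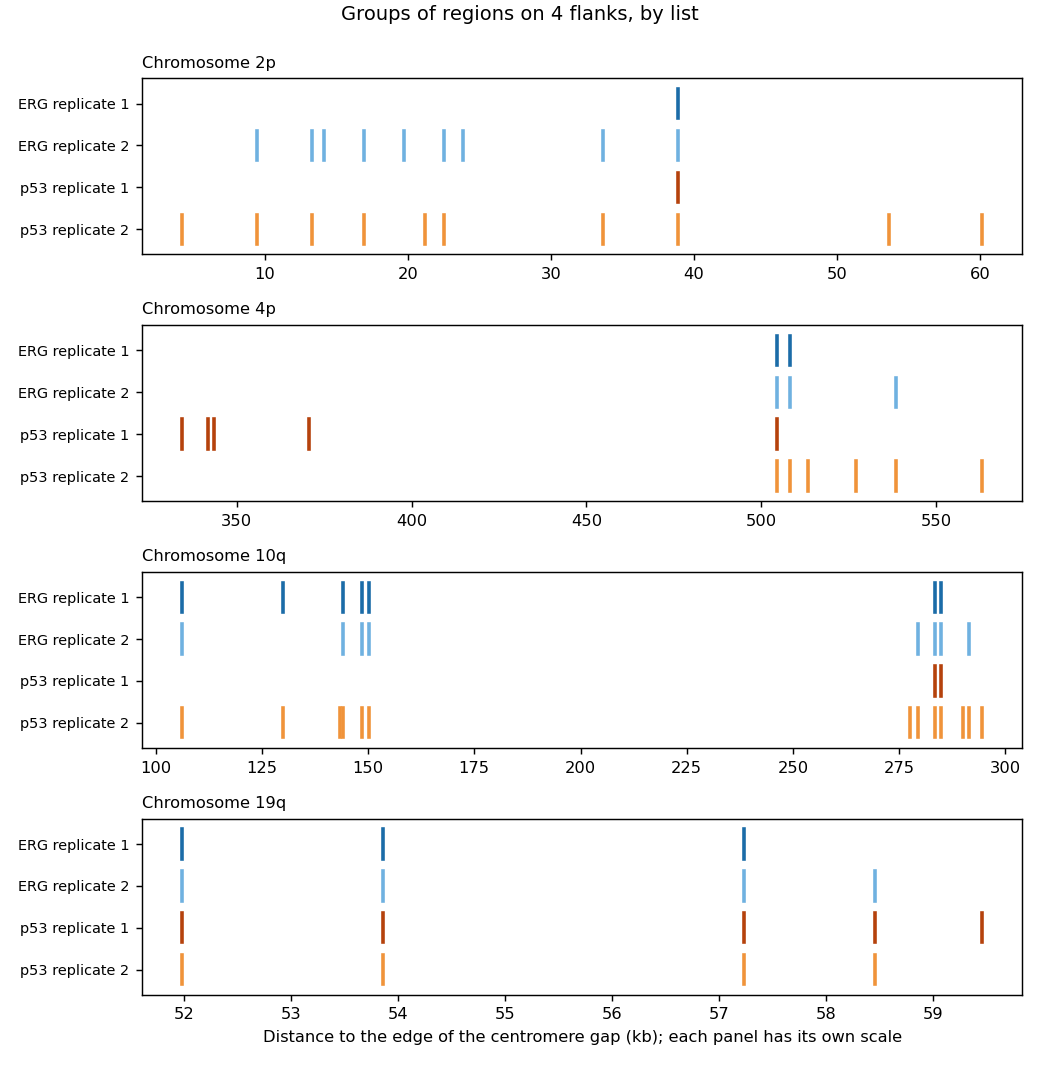
Regions of the groups on 4 flanks by distance to the gap edge in kb (x axis, a scale of its own in each panel) and by list (rows); each tick is a region with a peak of that list. On chromosome 2 the ticks are mostly in the replicate 2 rows (9 ERG and 10 p53 regions), on chromosome 4 p53 replicate 1 stands alone at 334 to 371 kb, and on chromosome 19 the 4 lists nearly coincide.

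The other groups were smaller. Chromosome 19 had 5 regions within 7.67 kb (27731980 to 27739644), all with a p53 replicate 1 peak and 4 with p53 replicate 2. Chromosome 18 had 3 regions within 3.14 kb (18517164 to 18520302), all with p53 replicate 2 and ERG replicate 2 and 1 with p53 replicate 1. Chromosome 1 had 3 regions within 3.27 kb from 121351978 and 3 within 6.74 kb from 121478659, and all 6 carried both p53 and ERG replicate 2. The rest lay on chromosomes 7 (3 regions), 8 (7 regions), 11 (3 regions) and 20 (4 regions), with 2, 4, 1 and 3 p53 regions. In 10 of the 13 groups both p53 lists had a peak. The 9 groups beyond 1 Mb held 1 or 2 p53 regions each among 3 to 29 regions, and the largest of them, with 29, was on chromosome 17 between 26662350 and 27279609.

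Overlap by replicate number was unequal. ERG replicate 2 and p53 replicate 2, without the other lists, shared 11 regions within 1 Mb, 0 at 1 to 5 Mb and 1 elsewhere. ERG replicate 1 and p53 replicate 1 alone shared 0, 1 and 11, and p53 replicate 1 met ERG replicate 2 at 18 of its 30 regions within 1 Mb and ERG replicate 1 at 16. p53 replicate 2 had more regions within 1 Mb, with 54. Several of the 11 replicate 2 regions within 1 Mb lay in the group on chromosome 2, and all 11 are among the 13 given next. Of the 32 regions within 1 Mb that ERG replicate 2 had without ERG replicate 1, 13 had a p53 peak (40.6%, 25.5% to 57.7%; 1.35% over the series), and of the 34 that ERG replicate 1 had without replicate 2, 2 did (5.88%, 1.63% to 19.1%; 0.444% over the series). The labels do not say whether samples of the same number were processed together, and this was not tested.

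Peak shape was compared last. Within 1 Mb the ERG peaks had a median width of 369 bp and 344 bp in replicates 1 and 2, and those of p53 had 278.5 bp and 344 bp, against 351 bp, 306 bp, 223 bp and 259 bp elsewhere. The ratio of the near to the elsewhere median was 1.05 and 1.12 for ERG and 1.25 and 1.33 for p53. For ERG replicate 1 this depended on the distance, since its 39 peaks within 500 kb had a median of 348 bp, under that elsewhere, while the other lists stayed above theirs. The ratio was higher in both p53 lists (exact permutation p = 0.333, the smallest possible), while the medians themselves averaged 311 bp in p53 and 356.5 bp in ERG (exact permutation p = 0.667). At 1 to 5 Mb the medians were 356 bp, 308 bp, 247.5 bp and 300 bp.

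Where ERG and p53 had a peak in the same region, their widths were closer to each other within 1 Mb than elsewhere. At the 33 regions within 1 Mb with peaks of ERG replicate 2 and p53 replicate 2, the median ratio of p53 to ERG width was 1.01, and 24 of the 33 differed by at most 10% (72.7%). At the 35 such regions elsewhere it was 0.602, and 5 differed by at most 10% (14.3%). For ERG replicate 1 and p53 replicate 2 the median ratio was 1.02 at 23 regions within 1 Mb and 0.479 at 40 elsewhere. p53 replicate 1 was narrower in both places but less so near the gaps, with 0.851 at 16 regions against 0.481 at 87 for ERG replicate 1, and 0.863 at 18 against 0.589 at 85 for ERG replicate 2. All 4 pairings thus had a higher ratio within 1 Mb than elsewhere. At 1 to 5 Mb, with 7 or 8 regions a pairing, the ratios were mixed. They were 0.499 and 0.510 for ERG replicate 1 with p53 replicates 1 and 2, and 0.808 and 0.961 for ERG replicate 2. Widths within 10% of each other were found there at 3 of 8 regions of ERG replicate 2 and p53 replicate 1, against 5 of 18 within 1 Mb, and at 1 of 7 regions of the replicate 2 lists. The pairings share their lists, so they are not independent.

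The positions of these peaks coincided as well. The midpoints of p53 replicate 2 and ERG replicate 2 peaks lay a median of 5.50 bp apart within 1 Mb and 100.5 bp apart elsewhere. The other pairings gave 6 bp against 80.3 bp (ERG replicate 1 and p53 replicate 2), 15.5 bp against 80 bp (replicates 1) and 22 bp against 92.5 bp (ERG replicate 2 and p53 replicate 1). Within 1 Mb the ERG replicates themselves lay 22.5 bp apart, and elsewhere 34.5 bp. The ERG value within 1 Mb is over 63 regions, of which 22 had a p53 peak. The p53 replicate 2 values there are over 33 regions for ERG replicate 2 and 23 for ERG replicate 1. The ERG offset at regions with p53 was not computed, so the values for ERG and for p53 with ERG are not directly comparable. At 1 to 5 Mb the 4 pairings of ERG with p53 gave 68.3 to 109 bp, at 7 or 8 regions each.

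**Figure D5:**
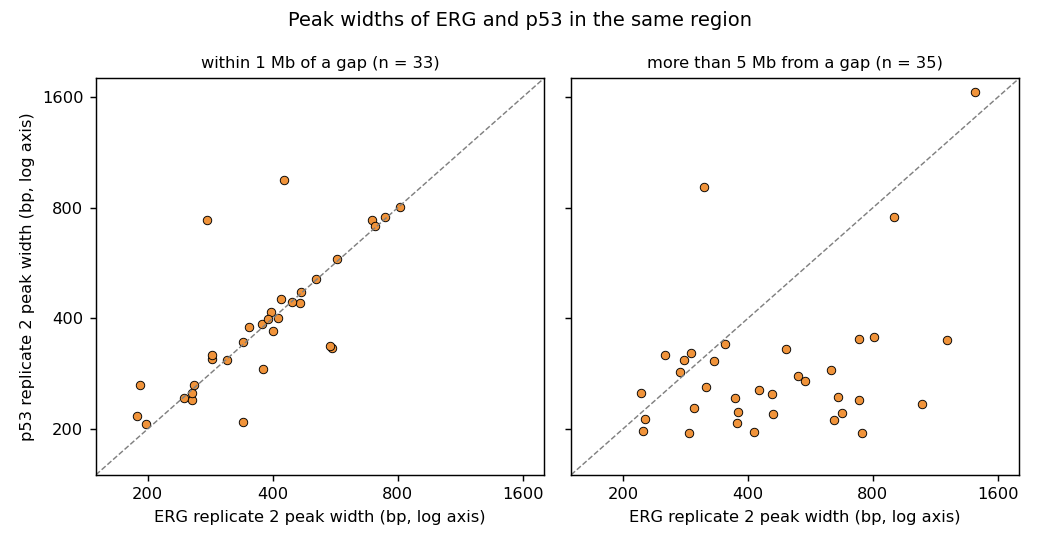
Peak width of p53 replicate 2 (y axis, bp, log scale) against that of ERG replicate 2 (x axis, bp, log scale) in regions with both, within 1 Mb of a gap (left, n = 33) and more than 5 Mb away or on X or Y (right, n = 35); the dashed line marks equal widths. Points follow the line on the left (median ratio 1.01) and lie mostly under it on the right (median ratio 0.602).

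ERG peaks within 1 Mb that met p53 were wider than those that did not, with medians of 401 bp against 346 bp in ERG replicate 1 (24 and 73 regions) and 389 bp against 306.5 bp in ERG replicate 2 (35 and 60 regions). Elsewhere the gap was larger, with 552.5 bp against 350 bp and 456 bp against 306 bp. In the same way p53 peaks within 1 Mb that met ERG had medians of 301.5 bp and 385 bp in replicates 1 and 2, and those that did not had 235.5 bp and 316 bp.

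The pericentromeric regions of both ERG lists were also ranked by width in the narrower replicate. The 10 widest all lay between 1 and 5 Mb. Only 63 of the 536 ranked regions lay within 1 Mb, so 10 regions are too few to tell the distances apart. The median ERG widths were larger within 1 Mb (369 bp and 344 bp) than at 1 to 5 Mb (356 bp and 308 bp). First was a region of 1144 bp and 1017 bp on chromosome 8 (42396230 to 42397373), followed by one of 1061 bp and 1011 bp on chromosome 7 (65564465 to 65565525). Then came the region on chromosome 21. Chromosome 10 followed with 976 bp and 1322 bp (43891703 to 43893044), and chromosome 4 with 1037 bp and 960 bp (48342652 to 48343688). On chromosome 17 there were 3, at 29034786 to 29036117 (1332 bp and 954 bp), 27139114 to 27140087 (899 bp and 928 bp) and 27619515 to 27620454 (940 bp and 887 bp). Completing the 10 were one of 935 bp and 951 bp on chromosome 12 (42631280 to 42632287) and one of 896 bp and 867 bp on chromosome 18 (12947673 to 12948568). Of the 10, 3 met p53, namely those on chromosomes 21 and 18 and the first of chromosome 17. Of all 536 ranked regions, 31 met p53 (5.78%, 4.10% to 8.09%), and 1.41% of regions of both ERG lists did over the series. Outside chromosome 21 the p53 peaks among the 10 were narrow, with 251 bp on chromosome 17 and 357 bp on chromosome 18.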

How the data were processed

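ChIP-seq was performed on VCaP cells with antibodies to ERG and p53, 2 samples each. Per the submitters' processing notes, CASAVA 1.4, Bowtie2 2.3.3.1 and MACS2 were used with hg19, and the authors called peaks on each sample without pooling. The study's methods name another Bowtie2 version and both builds. Each deposited list holds chromosome, start, end and peak name, numbered without gaps, and the authors' scores, p-values and read depths are not used here. The study's methods and reporting summary state MACS2 p thresholds, which differ from each other. Neither explains the deposited p53 lists, which are far shorter than the p53 peak sets described there, and any further filter is not given in the sources used here. In all 4 lists peaks lay past the end of GRCh38 chromosomes (2 to 164 peaks), so positions were not read with that build.

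Overlapping peaks (at least 1 bp) of all lists were merged. Distance was taken from the nearer region edge to the 3 Mb gap, and positions count from 1. Shares carry 95% Wilson intervals. Lists were compared by an exact permutation test over the 4 lists. Of regions, those of both p53 lists or all 4 lists, groups of at least 3 with p53, the 10 widest ERG regions and the nearest per flank were named. The members and rules were chosen with earlier results of these data known. Merging and distances were tested on simulated data. Alternatives comprised other distances, overlaps, widths, left-out lists or chromosomes, and counting by group. Python 3.11.15 and matplotlib 3.10.9 were used.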

Additional observations from a re-analysis of the deposited data

Results flagged for a closer look

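The share of regions found again in the other replicate moved in opposite directions for the factors. Within 1 Mb of a gap it was lower than elsewhere in both ERG lists, by -0.415 percentage points in replicate 1 and -17.9 in replicate 2, and higher in both p53 lists, by 53.7 points in replicate 1 and 18.1 in replicate 2. The mean change was 45.1 percentage points higher in p53 than in ERG. The difference was not tested, the lists of a factor share the regions counted, and the change in ERG replicate 1 is smaller than its counting error.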

How the results depend on the processing

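The direction from ERG to p53 held in all alternatives run for the differences within 1 Mb and 5 Mb. Of 107 values recomputed, 84 were counted as unchanged and 23 as moved, and no difference between the factors reversed. A p53 minus ERG difference was counted as unchanged whenever it kept its sign, whatever its size. All such differences were therefore among the 84, although that within 1 Mb, 25.4 points in the main setting, ranged from 11.7 to 38.4. The limits for counts were also wide, since 708 regions within 5 Mb without ERG replicate 1, against 976, counted as unchanged. The means over same-numbered pairs, given below, are among the 84 and equal the main values by construction. The 84 therefore do not show that the sizes were stable. With 500 kb in place of 1 Mb, 85 regions remained, with 0.272% and 0.427% of the ERG and 30.4% of the p53 replicate 2 peaks, and a median width of 348 bp in ERG replicate 1, which turned from above to below its 351 bp elsewhere. With 2 Mb there were 341 regions and 1.78% and 2.03% of the ERG peaks. With 3 Mb in place of 5 Mb there were 543 regions and 3.02% and 3.18% of the ERG peaks. These follow from the distances chosen. A reciprocal overlap of 50% left 51.7% of ERG regions in both replicates. Among peaks at least as wide as their list's median, that share was 52.9%, 11 regions were in all 4 lists, and p53 replicates 1 and 2 had 19.3% and 55.1% of their peaks within 1 Mb and 30.7% and 63.8% within 5 Mb. Counted by group within 100 kb, p53 had 7.65% and 17.3% within 1 Mb, and 70.3% of ERG groups were in both replicates. The p53 minus ERG difference within 1 Mb was then 11.7 percentage points. When single lists were left out, it ranged from 12.5 to 38.4 points within 1 Mb and from 17.1 to 42.0 within 5 Mb, and the share of p53 regions with an ERG peak from 37.4% (without ERG replicate 2) to 64.6% (without p53 replicate 1). Leaving out chromosome 2 or 10, which had 13 p53 regions each, gave 24.5 and 22.1 points. The cause of values that moved for other reasons was not tested.

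With same-numbered lists taken as a replicate block, an alternative chosen after seeing the data, p53 minus ERG within 1 Mb was 12.5 points in pair 1 and 38.3 in pair 2, mean 25.4, and within 5 Mb 17.2 and 41.9, mean 29.6 (exact sign-flip permutation p = 0.5 for both, the smallest that 2 pairs can give). The labels do not say that a number marks a shared batch. The lists carry no read depth, and where a list lacks a region, no peak was called, which does not show that the factor was absent. Whether reads in these regions align to 1 place only was not tested, and the input chromatin is not analysed here.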
